A study of Mus musculus with 24 samples.

Results

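A set of 10 channel genes by which sensory neurons detect heat, cold, irritants, pressure and acid were followed in mouse dorsal root ganglia: 5 TRP channel genes (Trpv1, Trpv2, Trpa1, Trpm8 and Trpm3), 2 Piezo genes (Piezo1 and Piezo2) and 3 acid-sensing channel genes (Asic1, Asic2 and Asic3). The members were chosen by gene symbol, and all 10 were found among the 38215 genes of the files. For 5 of them the files carried an older symbol (Fam38a, Fam38b, Accn2, Accn1 and Accn3 for Piezo1, Piezo2, Asic1, Asic2 and Asic3), and these were matched by gene identifier. Sensory neurons with axons in the sciatic nerve have their cell bodies in these ganglia. The groups were injured C57, injured CAST and injured DBA ganglia, taken 5 days after sciatic nerve crush, and naive C57, naive CAST and naive DBA ganglia, with 4 libraries labelled as biological quadruplicates in each of the 6 groups. The labels name no further strain detail, allele, age or pooling, and one protocol field speaks of sham injury where the sample labels say naive, so whether the naive mice had a sham operation is not settled. The series title writes CAST as CAST/Ei, and all 24 libraries of the deposited values come from these 3 strains.

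TRP channels are cation channels that open to temperature, chemicals or lipids. TRPV1 opens to noxious heat, capsaicin and protons, TRPA1 to electrophilic irritants such as mustard oil, TRPM8 to cold and menthol, and TRPM3 to heat and the neurosteroid pregnenolone sulphate. Piezo proteins form channels opened by membrane tension, with PIEZO2 needed for touch and proprioception, and the acid-sensing ion channels (ASICs) are proton-gated sodium channels of the degenerin and epithelial sodium channel family.

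Values are given in CPM (reads per 1e6 reads of a library), obtained by multiplying the deposited FPKM by the genomic span of the gene. Library totals were estimated from the values themselves, at 51.38 to 145.36 M reads (M, 1e6) with a median of 107 M. By these estimates the members had between 305 reads (Piezo1) and 32780 reads (Piezo2) in a library. All 10 passed the filter on low values, as did 25983 genes in all. On the estimated reads, the 4 libraries of each group differed by more than sampling noise, with a chi-square per degree of freedom of 5.77 to 73.2 over the 36 replicate pairs. Of the libraries, 3 were singled out as standing apart from the rest of their group. Injured C57 replicate 3 had the lowest estimated total (51.38 M), and naive C57 replicate 1 had the highest summed FPKM of its group (185535, against 154918 to 160593 in the others). Naive DBA replicate 3 had the highest summed FPKM of its group (190769) and 321 CPM of skeletal muscle markers, against 4.3 to 52.6 CPM in all other libraries. Other groups were uneven too. Injured CAST replicates 1 and 2 gave a chi-square per degree of freedom of 12, and replicates 3 and 4 one of 17, against 28.9 to 50.6 between these pairs. Injured DBA replicates 2 and 3 gave 51.7. Of the markers that define the labelled tissue, the 16 pan-neuronal genes summed to 16600 to 22600 CPM in every library. None was at 0 in all libraries of a group.

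The values behave as reads assigned to whole gene spans, introns included, and shared between genes that overlap, though the counting method is not stated. Patl2, for example, averaged 137 CPM and B2m, which overlaps it, 134 CPM, and B2m made up 96.9% to 98.6% of the Patl2 value in every library. Among the members, no annotated gene overlaps Trpv1 (chr11:73234292-73261242, mm10, plus strand), Trpv2 (chr11:62574486-62600515, plus strand), Trpa1 (chr1:14872648-14918862, minus strand), Asic1 (chr15:99670368-99701130, plus strand) or Asic3 (chr5:24413392-24417835, plus strand). Trpm8 (chr1:88277661-88389293, plus strand) holds an antisense gene, 4930453O03Rik, whose reads came to 27.3% to 38.4% of the Trpm8 value. Piezo1 (chr8:122481698-122551329, minus strand) overlaps part of Ctu2 (chr8:122476143-122484138, plus strand) and also lies within the annotated span of Gm20388. The whole Ctu2 value came to 35.2% to 80% of the Piezo1 value, but the Ctu2 value can include reads outside Piezo1. The share of the Piezo1 reads that lie in Ctu2 was not measured. Trpm3 (chr19:22139046-22995410, plus strand) is overlapped by 5 annotated genes. Of these, the lincRNA C330002G04Rik, which runs past the end of Trpm3, had a value of 0.241% to 6.7% of that of Trpm3. Asic2 (chr11:80880169-81968457, minus strand) is overlapped by 6 small genes.

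Promoter windows (250 bases before to 50 after an annotated start) were taken from RefSeq on GRCm38.p6 for 8 of the members, which gave 12 windows. Trpv2 had 3 windows and Asic2 and Trpm3 had 2 each. The windows are printed for the 2 members that rose after crush in all strains (Trpv2 and Piezo1), for 2 that fell in all strains (Trpm8 and Asic2) and for both starts of Trpm3, whose direction differed between strains. Each runs 5′ to 3′ on the strand of its gene, and capitals mark matches, on either strand, to any of 5 motifs: AP-1 (TGANTCA), CRE (TGACGTCA), RUNX (TGTGGT), GC box (GGGCGG) and TATA box (TATAAA). The windows are chr11:62574236-62574535 for Trpv2, chr8:122551280-122551579 for Piezo1 (minus strand), chr1:88306485-88306784 for Trpm8, chr11:81968347-81968646 for Asic2 (minus strand), and chr19:22138796-22139095 and chr19:22447958-22448257 for the upstream and downstream Trpm3 starts.
Trpv2: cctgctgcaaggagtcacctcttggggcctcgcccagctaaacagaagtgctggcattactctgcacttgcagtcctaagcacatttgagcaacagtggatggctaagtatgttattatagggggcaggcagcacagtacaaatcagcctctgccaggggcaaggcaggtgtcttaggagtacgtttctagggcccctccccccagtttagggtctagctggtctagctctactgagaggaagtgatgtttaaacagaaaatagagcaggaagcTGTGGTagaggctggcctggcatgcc
Piezo1: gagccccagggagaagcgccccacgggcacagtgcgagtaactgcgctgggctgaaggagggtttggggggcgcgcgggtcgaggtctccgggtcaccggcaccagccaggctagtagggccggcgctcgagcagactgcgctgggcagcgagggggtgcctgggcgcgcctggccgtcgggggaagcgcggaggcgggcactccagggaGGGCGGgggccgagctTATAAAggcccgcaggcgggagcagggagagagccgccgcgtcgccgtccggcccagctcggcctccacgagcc
Trpm8: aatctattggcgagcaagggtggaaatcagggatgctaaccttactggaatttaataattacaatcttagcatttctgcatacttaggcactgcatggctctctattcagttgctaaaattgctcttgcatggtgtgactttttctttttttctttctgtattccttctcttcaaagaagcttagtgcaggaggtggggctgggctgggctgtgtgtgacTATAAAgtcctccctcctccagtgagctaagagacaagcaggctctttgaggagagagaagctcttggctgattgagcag
Asic2: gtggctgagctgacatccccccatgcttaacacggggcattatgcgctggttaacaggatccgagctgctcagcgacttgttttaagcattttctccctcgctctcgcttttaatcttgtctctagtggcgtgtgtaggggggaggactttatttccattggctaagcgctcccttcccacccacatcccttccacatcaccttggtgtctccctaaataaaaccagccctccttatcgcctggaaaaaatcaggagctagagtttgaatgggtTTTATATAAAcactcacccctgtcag
Trpm3, upstream start: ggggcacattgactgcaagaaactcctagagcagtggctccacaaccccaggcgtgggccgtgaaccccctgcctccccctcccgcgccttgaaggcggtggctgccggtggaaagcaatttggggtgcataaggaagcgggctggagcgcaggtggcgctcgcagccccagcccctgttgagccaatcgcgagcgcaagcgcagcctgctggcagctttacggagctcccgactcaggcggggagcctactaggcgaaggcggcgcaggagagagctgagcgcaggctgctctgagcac
Trpm3, downstream start: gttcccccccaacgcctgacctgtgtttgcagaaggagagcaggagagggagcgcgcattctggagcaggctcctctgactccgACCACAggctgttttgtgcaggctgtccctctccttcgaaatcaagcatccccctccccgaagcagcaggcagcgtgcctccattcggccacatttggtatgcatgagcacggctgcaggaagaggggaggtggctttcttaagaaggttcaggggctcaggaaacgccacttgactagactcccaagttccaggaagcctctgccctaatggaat
The capitals are a RUNX match for Trpv2, a GC box and a TATA box match for Piezo1, a TATA box match for Trpm8, a pair of overlapping TATA box matches on opposite strands for Asic2, none for the upstream Trpm3 start and a RUNX match, on the other strand, for the downstream one. Over the 12 windows, 0 held the AP-1 letters and 0 the CRE letters, against 7.81% and 1.79% of the 32851 windows of that length in the table. The RUNX letters were in 5 windows (16.8% of all), the TATA box letters in 4 (13.6% of all) and the GC box letters in 1 (35.7% of all). The printed Trpv2 window overlaps another Trpv2 window (chr11:62574263-62574562), which holds the same RUNX match and also a TATA box match. That RUNX match is thus counted in both windows. These counts describe letters in the windows and say nothing of binding.

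Levels of different genes can be compared only per length, and on a scale of CPM per kilobase of exon Asic3 was the highest member and Piezo1 the lowest in naive ganglia of all 3 strains. Asic3 stood at 48.1 ± 2.51 in naive C57, 47.0 ± 3.26 in naive CAST and 38.4 ± 1.39 in naive DBA ganglia (mean ± SD, n = 4 each), and Piezo1 at 0.497 ± 0.0426, 0.561 ± 0.0703 and 0.5 ± 0.0461. Between them the order was Asic2, Asic1, Piezo2, Trpa1, Trpv1, Trpv2, Trpm8 and Trpm3 in naive C57, where Asic1, Piezo2, Trpa1 and Trpv1 ran into each other (means of 12.9 to 14.7, with overlapping ranges between neighbours) and so did Trpv2 and Trpm8. In naive CAST ganglia Trpa1 moved up to follow Asic3, at 29.8 ± 1.91, and its lowest library (27.4) was above the highest of the genes after it (19.9). In naive DBA ganglia Trpa1 came after Trpv1, at 9.71 ± 0.426. This scale is approximate, since intronic reads appear to be counted: only 0.39% of the Asic2 span and 2.85% of the Trpm3 span is exonic, against 54.52% of the Asic3 span.

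**Figure D1:**
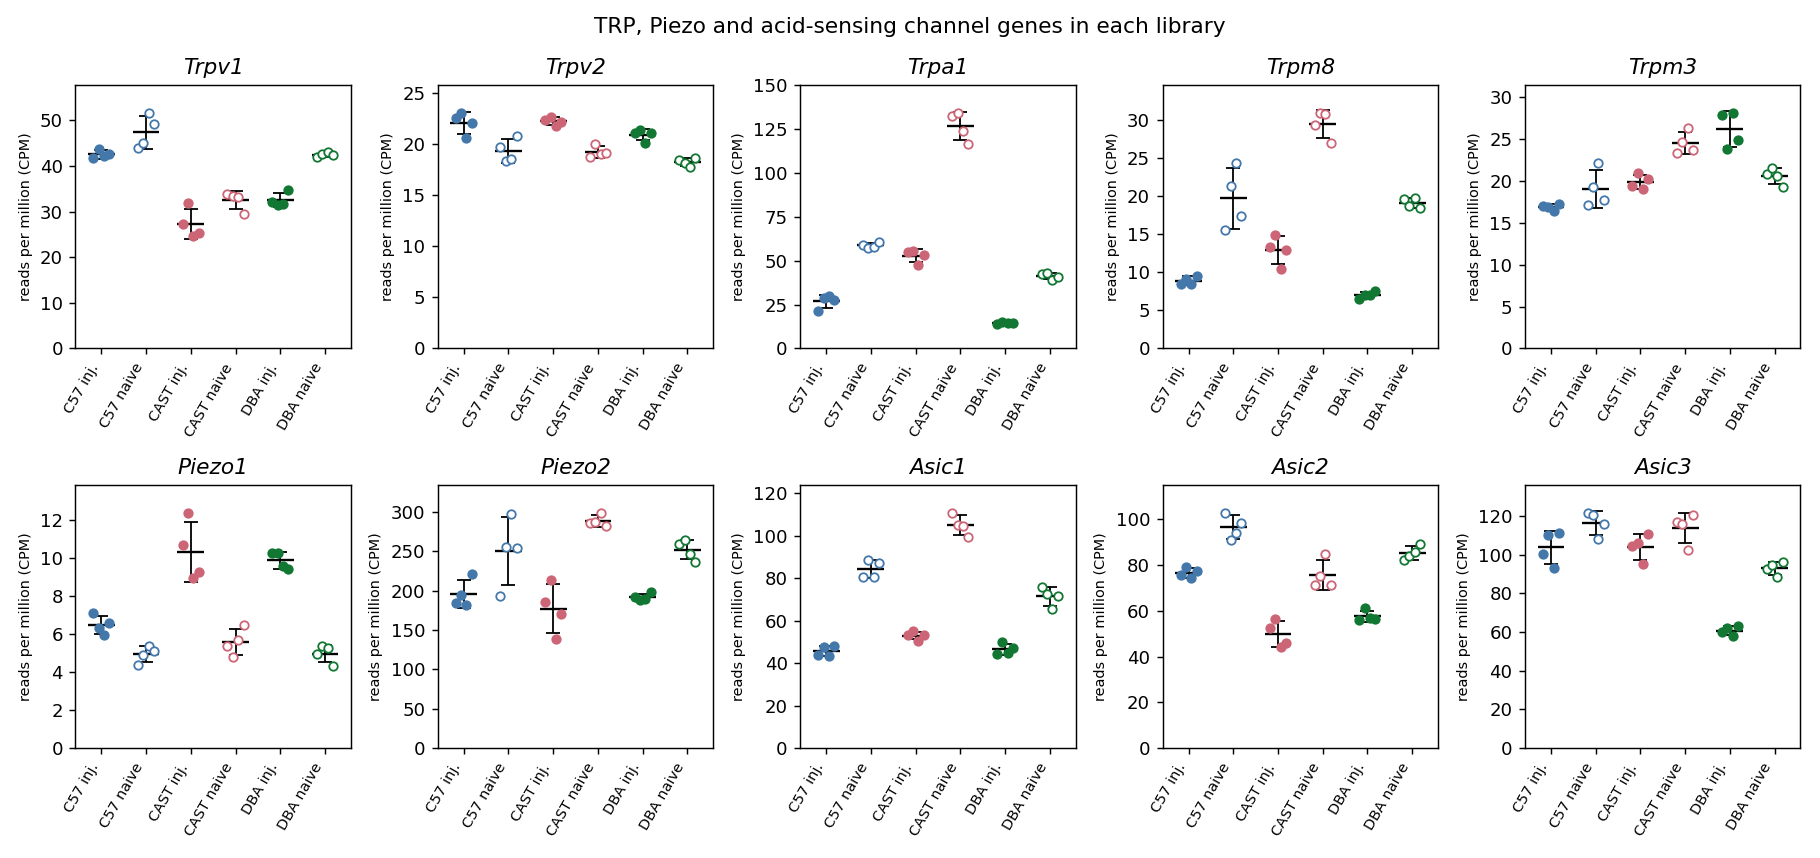
Level in CPM (vertical axes from 0) of the 10 channel genes in each of the 24 libraries, with filled circles for injured and open circles for naive ganglia; bars give the mean and the SD of the 4 libraries. Trpa1, Trpm8 and Asic1 lie lower in all injured than in all naive libraries of each strain, Piezo1 lies higher, and Trpm3 lies lower in injured CAST but higher in injured DBA ganglia.

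The first question was how the channel genes stood 5 days after crush within each strain. The irritant receptor Trpa1, the cold receptor Trpm8 and the proton-gated channel genes Asic1 and Asic2 fell in all 3 strains, as did the touch channel gene Piezo2, whereas Trpv2 and Piezo1 rose in all 3. After crush in C57 mice 2 of the 10 members were called higher and 7 lower, and of all genes 41.1% were called (19.7% higher, 21.4% lower). After crush in CAST mice 2 members were higher and 7 lower, and of all genes 49.3% were called (26.8% higher, 22.5% lower). After crush in DBA mice 3 members were higher and 7 lower, and of all genes 52.5% were called (27.6% higher, 24.9% lower). The members had a median log2 fold change (injured over naive) of -0.25 for C57, -0.45 for CAST and -0.48 for DBA, beside 0, 0.02 and 0.01 for all genes. Of the members 5 fell in all 3 strains (14.7% of all genes did) and 2 rose in all 3 (14.4% of all genes did). In whole ganglia, fewer cells of a type and less RNA per cell cannot be told apart.

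Trpa1 had 21.6, 28.8, 30.1 and 27.5 CPM in injured C57 ganglia, against 58.9, 57.1, 58 and 60.9 CPM in naive C57 ganglia. In CAST mice Trpa1 had 54.9, 55.8, 47.6 and 53.3 CPM in injured CAST ganglia, against 133, 134, 124 and 117 CPM in naive CAST ganglia. In DBA mice Trpa1 had 14.1, 15.2, 14.2 and 14.5 CPM in injured DBA ganglia, against 42.6, 43, 39.1 and 40.9 CPM in naive DBA ganglia. Every injured library was below every naive library of its strain, and the injured CAST libraries lay below the naive C57 libraries as well. The log2 fold change was -1.12 (SE 0.073, limma adjusted p = 7.6e-12) in C57, -1.26 (SE 0.073, limma adjusted p = 5.6e-13) in CAST and -1.48 (SE 0.073, limma adjusted p = 2.14e-14) in DBA, so the mean fell to 0.46, 0.416 and 0.35 of the naive mean.

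Trpm8 had 8.43, 9.12, 8.41 and 9.56 CPM in injured C57 ganglia, against 15.6, 21.4, 24.4 and 17.4 CPM in naive C57 ganglia. In CAST mice Trpm8 had 13.3, 14.8, 10.4 and 12.9 CPM in injured CAST ganglia, against 29.3, 30.9, 30.8 and 26.9 CPM in naive CAST ganglia. In DBA mice Trpm8 had 6.5, 7.07, 7.03 and 7.49 CPM in injured DBA ganglia, against 19.6, 18.7, 19.7 and 18.5 CPM in naive DBA ganglia. The groups again did not overlap in any strain, and the naive C57 libraries were the most spread (coefficient of variation 20.1%). The log2 fold changes were -1.09 (SE 0.102, limma adjusted p = 4.91e-09), -1.18 (SE 0.102, limma adjusted p = 7.38e-10) and -1.38 (SE 0.102, limma adjusted p = 3.48e-11) in C57, CAST and DBA. Less the reads of the antisense gene within it, Trpm8 averaged 5.88 ± 0.349 CPM in injured and 13.3 ± 2.67 CPM in naive C57 ganglia (SD, n = 4 each), and its log2 fold changes were -1.10, -1.15 and -1.30, all called.

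Of the heat-linked genes, Trpv1 had 41.6, 43.8, 42.1 and 42.5 CPM in injured C57 ganglia, against 43.9, 45, 51.6 and 49.3 CPM in naive C57 ganglia. The C57 groups did not overlap, but their nearest libraries were 43.8 and 43.9 CPM and the log2 fold change did not pass the test, at -0.15 (SE 0.064, limma adjusted p = 0.0585). In CAST mice Trpv1 had 27.4, 31.9, 24.8 and 25.2 CPM in injured CAST ganglia, against 33.8, 33.4, 33.3 and 29.5 CPM in naive CAST ganglia, with an overlap at the upper end of the injured libraries. In DBA mice Trpv1 had 32.2, 31.5, 31.8 and 34.8 CPM in injured DBA ganglia, against 41.9, 42.5, 43 and 42.4 CPM in naive DBA ganglia, with no overlap. Trpv1 fell in CAST, by 0.25 on the log2 scale (limma adjusted p = 0.002), and in DBA, by 0.38 (limma adjusted p = 2.14e-05). These changes were smaller than those of Trpa1 and Trpm8, and in C57 the Trpv1 call was gained under 8 of 36 alternatives, with the largest change without naive C57 replicate 1 (-0.19, adjusted p = 0.0247).

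Trpv2, first described as a channel opened by noxious heat in cultured cells and also expressed in macrophages, had 22.6, 23.1, 20.6 and 22.1 CPM in injured C57 ganglia, against 19.7, 18.4, 18.6 and 20.8 CPM in naive C57 ganglia. In CAST mice Trpv2 had 22.4, 22.7, 21.8 and 22.2 CPM in injured CAST ganglia, against 18.7, 20.1, 19.1 and 19.1 CPM in naive CAST ganglia, and in DBA mice 21.1, 21.4, 20.1 and 21.1 CPM in injured DBA ganglia, against 18.5, 18.2, 17.8 and 18.7 CPM in naive DBA ganglia. The injured libraries were above the naive ones in CAST and DBA, and in C57 1 injured library lay below the highest naive one. The rise was small and of like size, with log2 fold changes of 0.19 (SE 0.043, limma adjusted p = 0.000929), 0.20 (SE 0.043, limma adjusted p = 0.00028) and 0.19 (SE 0.043, limma adjusted p = 0.000601).

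Trpm3 was the member whose direction depended on the strain. It had 27.9, 23.9, 28.1 and 24.9 CPM in injured DBA ganglia, against 20.9, 21.5, 20.6 and 19.2 CPM in naive DBA ganglia, and every injured DBA library was above every naive one. In CAST mice Trpm3 had 19.4, 20.9, 19.1 and 20.2 CPM in injured CAST ganglia, against 23.3, 24.7, 26.3 and 23.7 CPM in naive CAST ganglia, and there every injured library was below every naive one. In C57 mice Trpm3 had 17, 16.9, 16.4 and 17.2 CPM in injured C57 ganglia, against 17.1, 19.3, 22.2 and 17.7 CPM in naive C57 ganglia, groups that overlap at 17.1 to 17.2 CPM. The log2 fold change was 0.34 (SE 0.065, limma adjusted p = 0.000113) in DBA, -0.29 (SE 0.065, limma adjusted p = 0.000579) in CAST and -0.17 (SE 0.065, limma adjusted p = 0.0475) in C57. The C57 call was lost under 20 of 36 alternatives, 15 of them the omission of 1 library, and without naive C57 replicate 3 the value was -0.09 (adjusted p = 0.243); the other omissions left it between -0.15 and -0.21. Less the reads of the genes that overlap it, Trpm3 changed by 0.35 in DBA (adjusted p = 9.4e-05) and -0.30 in CAST (adjusted p = 0.00057).

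Of the mechanically gated channels, Piezo1, a channel of endothelial cells, fibroblasts and immune cells among others, had 7.09, 6.29, 5.94 and 6.54 CPM in injured C57 ganglia, against 4.38, 4.89, 5.37 and 5.12 CPM in naive C57 ganglia. In CAST mice Piezo1 had 10.7, 12.3, 8.92 and 9.27 CPM in injured CAST ganglia, against 5.37, 4.79, 5.68 and 6.46 CPM in naive CAST ganglia. In DBA mice Piezo1 had 10.2, 10.2, 9.57 and 9.41 CPM in injured DBA ganglia, against 4.93, 5.34, 5.25 and 4.33 CPM in naive DBA ganglia. Injured libraries were above naive ones in every strain, with log2 fold changes of 0.36 (SE 0.091, limma adjusted p = 0.00252) in C57, 0.83 (SE 0.091, limma adjusted p = 4.1e-08) in CAST and 0.93 (SE 0.091, limma adjusted p = 5.28e-09) in DBA. Less the reads of overlapping genes other than Gm20388, Piezo1 averaged 2.24 ± 0.451 CPM in injured and 1.56 ± 0.548 CPM in naive C57 ganglia, 6.21 ± 1.29 and 2.71 ± 0.718 CPM in injured and naive CAST ganglia, and 4.78 ± 0.258 and 1.49 ± 0.406 CPM in injured and naive DBA ganglia (SD, n = 4 each). On these values the log2 fold change was 0.44 in C57, where the call was lost (adjusted p = 0.0698), 1.07 in CAST (adjusted p = 5.08e-05) and 1.43 in DBA (adjusted p = 1.01e-06). Gm20388 spans many genes, with 5183 to 7899 CPM, and its reads were not subtracted. The whole value of Ctu2 was subtracted, though Ctu2 lies only partly within Piezo1. The subtracted Piezo1 values can therefore be too low, and the fold changes and calls that rest on them are uncertain.

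Piezo2 (chr18:63010213-63387183, minus strand), needed for gentle touch and proprioception, is overlapped by 2 small genes and had 184, 195, 181 and 221 CPM in injured C57 ganglia, against 193, 255, 297 and 254 CPM in naive C57 ganglia. In CAST mice Piezo2 had 186, 213, 138 and 170.0 CPM in injured CAST ganglia, against 286, 287, 298 and 281 CPM in naive CAST ganglia. In DBA mice Piezo2 had 191, 189, 189 and 198 CPM in injured DBA ganglia, against 259, 264, 247 and 237 CPM in naive DBA ganglia. The groups were apart in CAST and DBA, and in C57 naive replicate 1, at 193 CPM, lay among the injured libraries. Piezo2 fell with log2 fold changes of -0.34 (SE 0.106, limma adjusted p = 0.0117) in C57, -0.72 (SE 0.106, limma adjusted p = 4.15e-06) in CAST and -0.39 (SE 0.106, limma adjusted p = 0.00338) in DBA, and without naive C57 replicate 3 the C57 call was lost (-0.25, adjusted p = 0.0615).

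Among the acid-sensing channels, Asic1 had 43.7, 47.5, 43.4 and 47.9 CPM in injured C57 ganglia, against 80.8, 88.6, 80.7 and 86.9 CPM in naive C57 ganglia. In CAST mice Asic1 had 53.1, 55.1, 50.6 and 53.1 CPM in injured CAST ganglia, against 111, 105, 105 and 99.4 CPM in naive CAST ganglia. In DBA mice Asic1 had 44.4, 50.1, 44.9 and 47 CPM in injured DBA ganglia, against 75.8, 72.5, 65.4 and 71.8 CPM in naive DBA ganglia. All injured libraries were below all naive ones of their strain, and the 3 injured groups stood nearer to each other than the 3 naive groups did. The log2 fold changes were -0.88 (SE 0.052, limma adjusted p = 1.21e-12), -0.98 (SE 0.052, limma adjusted p = 1.08e-13) and -0.61 (SE 0.052, limma adjusted p = 4.6e-10) in C57, CAST and DBA.

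Asic2 had 75.5, 79.2, 74.3 and 77.2 CPM in injured C57 ganglia, against 103, 90.9, 93.8 and 98.5 CPM in naive C57 ganglia. In CAST mice Asic2 had 52.4, 56.3, 44.1 and 46.1 CPM in injured CAST ganglia, against 71.2, 75, 85 and 71.3 CPM in naive CAST ganglia. In DBA mice Asic2 had 56, 61.2, 56.7 and 56.2 CPM in injured DBA ganglia, against 82.1, 83.9, 85.6 and 89.2 CPM in naive DBA ganglia. The groups did not overlap in any strain, and Asic2 fell by 0.33, 0.60 and 0.56 on the log2 scale in C57, CAST and DBA (limma adjusted p = 0.000192, 2.73e-08 and 7.32e-08).

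Asic3, an abundant proton-gated channel of sensory neurons, had 59.9, 61.9, 57.8 and 63.1 CPM in injured DBA ganglia, against 92.8, 94.4, 88.5 and 96.5 CPM in naive DBA ganglia, with every injured library below every naive one. In C57 mice Asic3 had 101, 110.1, 93.3 and 111 CPM in injured C57 ganglia, against 122, 120.5, 108 and 116 CPM in naive C57 ganglia, and in CAST mice 104, 106, 95 and 111 CPM in injured CAST ganglia, against 117, 116, 102 and 120.4 CPM in naive CAST ganglia, with overlap in both. The log2 fold change was -0.61 (SE 0.060, limma adjusted p = 4.81e-09) in DBA, -0.17 (SE 0.060, limma adjusted p = 0.0268) in C57 and -0.13 (SE 0.060, limma adjusted p = 0.0763) in CAST, where it did not pass the test. In CAST a call was gained under 6 of 36 alternatives, among them upper-quartile scaling (-0.17, adjusted p = 0.0269), median-of-ratios scaling (-0.16, adjusted p = 0.0377), and the omission of injured CAST replicate 4 (-0.16, adjusted p = 0.0439) or naive CAST replicate 3 (-0.18, adjusted p = 0.0167). The C57 call was lost on leaving out injured C57 replicate 1 (-0.15), injured C57 replicate 3 (-0.12), naive C57 replicate 1 (-0.15) or naive C57 replicate 2 (-0.15), and without the 3 libraries that stood apart the value was -0.10 (adjusted p = 0.223). In all, 6 members did not overlap between injured and naive libraries in C57, 8 in CAST and all 10 in DBA, beside 32.8%, 47.2% and 50.5% of all genes.

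**Figure D2:**
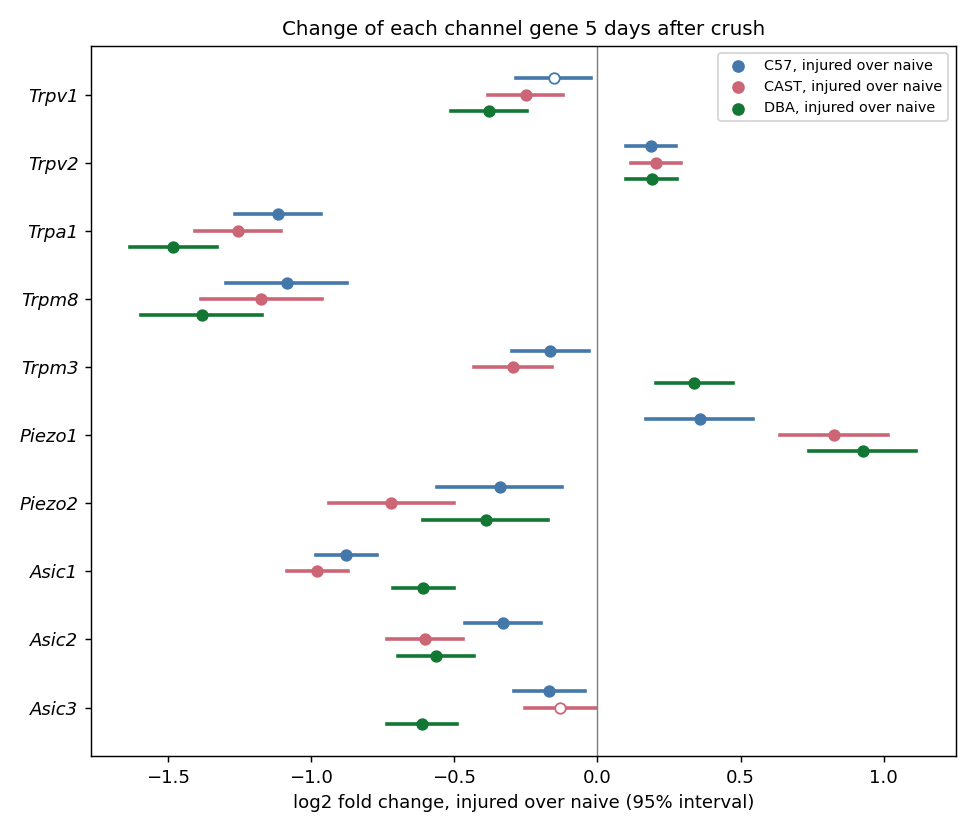
Log2 fold change of each channel gene, injured over naive, with its 95% interval from limma, in C57, CAST and DBA ganglia (4 libraries a group); filled points passed an adjusted p under 0.05. Trpa1 and Trpm8 lie beyond -1 in all 3 strains, Piezo1 and Trpv2 lie above 0 in all 3, and Trpm3 lies above 0 in DBA only (0.34).

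The next question was whether the response to crush differed between strains, tested as the difference of the log2 fold changes. In CAST minus C57, 1 member was higher and 0 were lower, and of all genes 12.4% were called (7.35% higher, 5.06% lower); at an unadjusted p under 0.05 limma gave 1 higher and 2 lower. In CAST minus DBA 1 member was higher and 2 were lower, and of all genes 14.5% were called (7.77% higher, 6.76% lower). In DBA minus C57 3 members were higher and 2 were lower, and of all genes 9.31% were called (4.93% higher, 4.38% lower). For all genes the CAST minus C57 split was 1909 higher and 1315 lower, and 1587 higher and 1798 lower with upper-quartile scaling. The contrasts share strains, so they are not independent of each other.

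Trpm3 differed by -0.63 (95% interval -0.82 to -0.44, limma adjusted p = 2.49e-05) in CAST minus DBA and by 0.50 (95% interval 0.31 to 0.69, limma adjusted p = 0.000763) in DBA minus C57. In CAST minus C57 its difference was -0.13 (95% interval -0.32 to 0.06, limma adjusted p = 0.447) and did not pass the test. Both calls kept their side of the threshold under all 36 alternatives.

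Asic3 was likewise apart in DBA ganglia, where its fall was larger. The difference was 0.48 (95% interval 0.31 to 0.66, limma adjusted p = 0.000219) in CAST minus DBA and -0.45 (95% interval -0.62 to -0.27, limma adjusted p = 0.00105) in DBA minus C57. CAST minus C57 gave 0.04 (95% interval -0.14 to 0.21, limma adjusted p = 0.853).

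Asic1 fell less in DBA ganglia than in CAST, with -0.37 (95% interval -0.52 to -0.22, limma adjusted p = 0.000863) in CAST minus DBA, and less than in C57, with 0.27 (95% interval 0.12 to 0.42, limma adjusted p = 0.0205) in DBA minus C57. Without the 3 libraries that stood apart the DBA minus C57 difference was 0.22 (adjusted p = 0.0526). CAST minus C57 gave -0.10 (95% interval -0.25 to 0.05, limma adjusted p = 0.454), not called.

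Piezo1 rose more in CAST and in DBA than in C57, with 0.47 (95% interval 0.20 to 0.73, limma adjusted p = 0.0157) in CAST minus C57 and 0.57 (95% interval 0.30 to 0.83, limma adjusted p = 0.005) in DBA minus C57. CAST minus DBA gave -0.10 (95% interval -0.36 to 0.17, limma adjusted p = 0.705). Less the reads of overlapping genes the DBA minus C57 difference was 0.99 (adjusted p = 0.0202) and the CAST minus C57 difference was 0.64, no longer called (adjusted p = 0.141). This subtraction took off the whole Ctu2 value, which can be too much.

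Trpa1 fell further in DBA than in C57, with -0.36 (95% interval -0.58 to -0.15, limma adjusted p = 0.0248) in DBA minus C57. This call was lost on leaving out injured C57 replicate 2 or 3 (-0.33 or -0.31), injured DBA replicate 1 (-0.35), or naive DBA replicate 1 or 2 (-0.35 for each), with adjusted p between 0.0508 and 0.0596. It also depended on the scale. Mean Trpa1 ran from 0.314 FPKM in injured DBA to 2.75 FPKM in naive CAST ganglia. Adding 1 FPKM to such values shrinks their fold changes, more so where the level is lower. On log2(FPKM + 1) the DBA minus C57 difference was -0.01 (adjusted p = 0.961). On that scale the CAST minus DBA difference was -0.28 (adjusted p = 0.000463), against 0.23 (95% interval 0.01 to 0.44, limma adjusted p = 0.165) on log2(CPM + 0.5). CAST minus C57 gave -0.14 (95% interval -0.35 to 0.07, limma adjusted p = 0.464) on log2(CPM + 0.5) and -0.285 (adjusted p = 0.000411) on log2(FPKM + 1); without injured C57 replicate 1 it was -0.24 (adjusted p = 0.0449) and the CAST minus DBA difference was called too (adjusted p = 0.0441).

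For Trpv1, Trpv2, Trpm8, Piezo2 and Asic2 no difference between strains passed the test on log2(CPM + 0.5), and the widest intervals were those of Piezo2 (-0.69 to -0.07 in CAST minus C57) and Trpm8 (-0.59 to 0.001 in DBA minus C57). Asic2 was near the threshold in CAST minus C57, at -0.27 (95% interval -0.46 to -0.08, limma adjusted p = 0.0525), and was called there under 9 of 36 alternatives, with adjusted p of 0.0207 under upper-quartile scaling, 0.0289 under median-of-ratios scaling and 0.0452 with the filter at 1 CPM. Of these 9, 5 were the omission of 1 library: naive C57 replicate 1 (-0.30), injured CAST replicate 1 (-0.30) or 2 (-0.33), or naive CAST replicate 1 (-0.30) or 4 (-0.30). In DBA minus C57 Asic2 was called when only the groups of the contrast were fitted (adjusted p = 0.0356). Piezo2 was called in CAST minus C57 under 3 of 36 alternatives, which were upper-quartile scaling (-0.42, adjusted p = 0.0481) and the omission of naive C57 replicate 3 (-0.47, adjusted p = 0.0344) or injured CAST replicate 2 (-0.47, adjusted p = 0.0273), and in CAST minus DBA without injured CAST replicate 2 (-0.43, adjusted p = 0.0445).

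**Figure D3:**
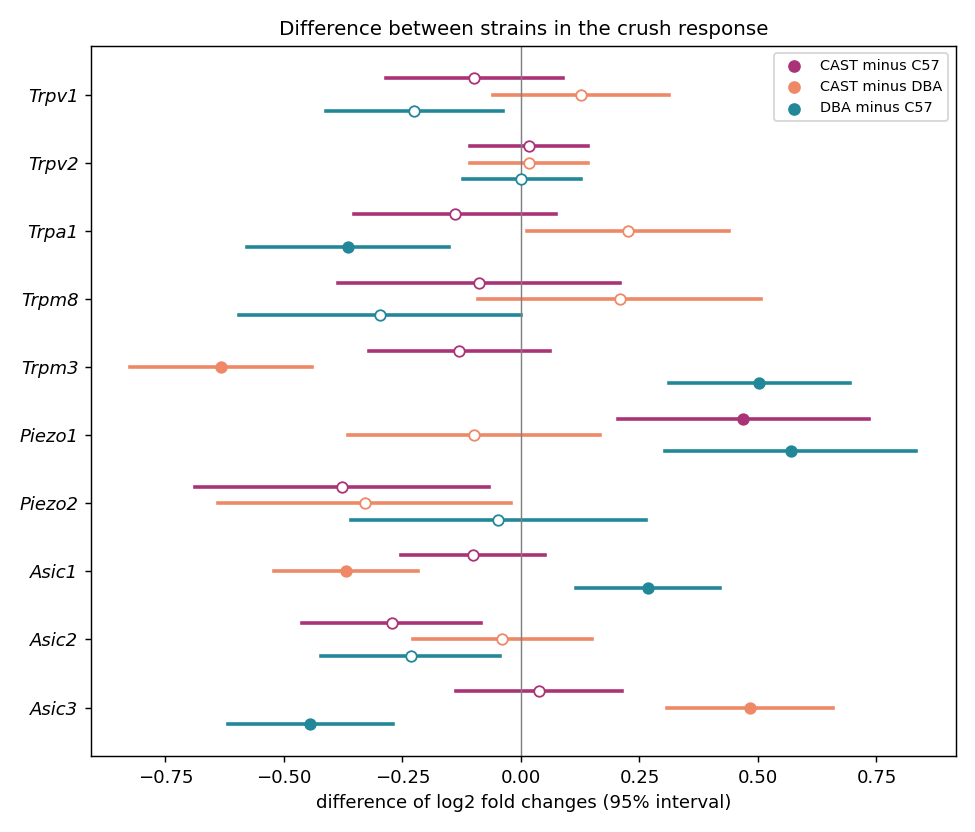
Difference between strains in the log2 fold change after crush, with its 95% interval from limma, for each channel gene; filled points passed an adjusted p under 0.05. Of the 30 differences, 9 are filled, and Trpm3 and Asic3 are called in both contrasts that hold DBA. Of all genes, 12.4% were called in CAST minus C57, 14.5% in CAST minus DBA and 9.31% in DBA minus C57.

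The third question was how the strains differed in naive ganglia, where CAST had more Trpa1 and Trpm8 reads and fewer Trpv1 reads than both other strains. Naive CAST against C57 had 4 members higher and 2 lower, and of all genes 46.4% were called (25.2% higher, 21.3% lower). Naive CAST against DBA had 5 members higher and 2 lower, and of all genes 46.7% were called (24.5% higher, 22.1% lower). Naive DBA against C57 had 0 members higher and 4 lower, and of all genes 23.1% were called (12.3% higher, 10.8% lower); at an unadjusted p under 0.05 limma gave 0 higher and 5 lower. The naive libraries are those already used in the crush contrasts, and the part of sequence differences between strains in these values was not tested.

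Trpa1 averaged 127 ± 8.12 CPM in naive CAST ganglia, 58.7 ± 1.65 CPM in naive C57 and 41.4 ± 1.82 CPM in naive DBA ganglia (SD, n = 4 each). Every naive CAST library was above every other naive library, with ratios of 2.16 over C57 and 3.07 over DBA and log2 fold changes of 1.10 (SE 0.073, limma adjusted p = 6.73e-12) and 1.60 (SE 0.073, limma adjusted p = 6.36e-15). Naive DBA was below naive C57 by 0.50 on the log2 scale (limma adjusted p = 1.02e-05), again with no overlap. The order was kept after crush, with 52.9 ± 3.66 CPM in injured CAST, 27.0 ± 3.74 CPM in injured C57 and 14.5 ± 0.503 CPM in injured DBA ganglia (SD, n = 4 each).

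Trpm8 was higher in naive CAST ganglia by 0.59 over C57 and 0.61 over DBA on the log2 scale (limma adjusted p = 3.72e-05 and 2.43e-05), and Asic1 by 0.32 and 0.55 (limma adjusted p = 1.96e-05 and 3.86e-09). Trpm3 was higher in naive CAST by 0.36 over C57 and 0.25 over DBA (limma adjusted p = 6.99e-05 and 0.00309). The reverse held for Trpv1, which averaged 32.5 ± 1.98 CPM in naive CAST, 47.4 ± 3.61 CPM in naive C57 and 42.5 ± 0.459 CPM in naive DBA ganglia (SD, n = 4 each), with no CAST library reaching the lowest of the other strains. Trpv1 was lower in naive CAST with log2 fold changes of -0.54 against C57 and -0.38 against DBA (limma adjusted p = 1.73e-07 and 2.34e-05).

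Asic2 was lower in naive CAST than in naive C57 by 0.35 on the log2 scale (limma adjusted p = 7.76e-05). Against DBA the Asic2 difference was -0.17 (SE 0.065, limma adjusted p = 0.0293), a call lost without naive CAST replicate 1, 2 or 4 (-0.15, -0.17 and -0.15) or without naive DBA replicate 3 or 4 (-0.17 and -0.15), with adjusted p between 0.0558 and 0.0952, and without the 3 libraries that stood apart (-0.17, adjusted p = 0.0503). In DBA against C57 Asic2 stood at -0.18 (SE 0.065, limma adjusted p = 0.0498), and this call was lost under 22 of 36 alternatives, 17 of them the omission of 1 library, with values of -0.15 to -0.19 there. Asic3 was lower in naive DBA than in naive C57 by 0.32 (limma adjusted p = 0.000212) and higher in naive CAST than in naive DBA by 0.29 (limma adjusted p = 0.000308), and CAST against C57 gave -0.03 (95% interval -0.16 to 0.09, limma adjusted p = 0.683). Asic1 was lower in naive DBA than in naive C57 by 0.24 (limma adjusted p = 0.00118).

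Trpv2, Piezo1 and Piezo2 did not pass the test between any pair of naive strains. For Trpv2 the intervals were narrow, with -0.01 (95% interval -0.10 to 0.08, limma adjusted p = 0.92) in CAST against C57, whereas for Piezo2 the same contrast gave 0.22 (95% interval 0.00 to 0.44, limma adjusted p = 0.0917). The Piezo2 call in that contrast was gained without naive C57 replicate 3 (0.31, adjusted p = 0.0186) or injured CAST replicate 3 (0.22, adjusted p = 0.0462). In naive CAST against DBA the Piezo2 groups did not overlap, and the value of 0.20 was called when only those groups were fitted (adjusted p = 0.00102). In DBA against C57, Trpv1 was called without naive C57 replicate 1 (-0.19, adjusted p = 0.0385) or injured CAST replicate 2 (adjusted p = 0.0324), and Trpm3 without naive C57 replicate 3 (0.18, adjusted p = 0.0267). Less the reads of overlapping genes, Piezo1 was higher in naive CAST by 0.65 over C57 (adjusted p = 0.00681) and by 0.68 over DBA (adjusted p = 0.0049). These calls are uncertain, since the whole Ctu2 value was subtracted though Ctu2 lies only partly within Piezo1.

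**Figure D4:**
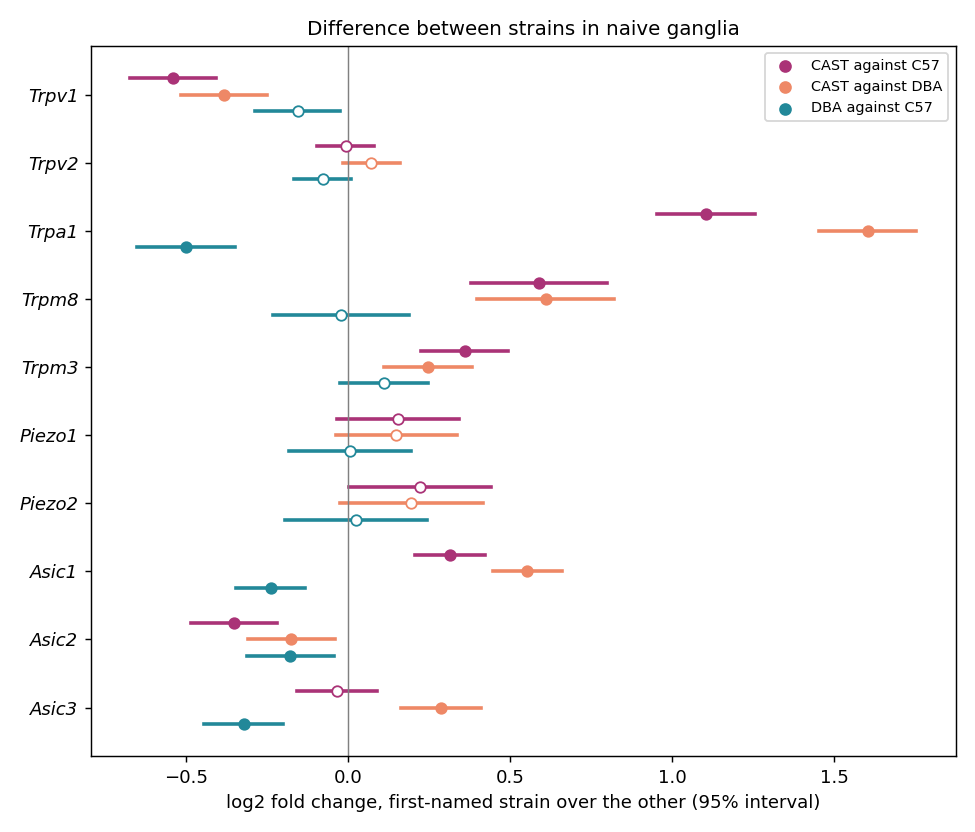
Log2 fold change between naive ganglia of each pair of strains, first-named strain over the other, with its 95% interval from limma; filled points passed an adjusted p under 0.05. Trpa1 lies at 1.10 for CAST against C57 and 1.60 for CAST against DBA, and Trpv1 lies at -0.54 and -0.38.

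In injured ganglia, CAST against C57 had 5 members higher and 2 lower, and of all genes 50.8% were called (29.7% higher, 21.1% lower). Injured CAST against DBA had 4 members higher and 3 lower, and of all genes 49.9% were called (27.4% higher, 22.5% lower). Injured DBA against C57 had 2 members higher and 5 lower, and of all genes 34.5% were called (19% higher, 15.5% lower). Asic3 averaged 60.7 ± 2.33 CPM in injured DBA ganglia, against 104 ± 8.48 CPM in injured C57 ganglia (SD, n = 4 each), with a log2 fold change of -0.77 (SE 0.060, limma adjusted p = 3e-10). Trpm3 was higher in injured DBA than in injured C57 ganglia by 0.62 (limma adjusted p = 5.84e-08). Asic1, which was lower in naive DBA than in naive C57 ganglia, gave 0.03 (95% interval -0.08 to 0.14, limma adjusted p = 0.713) in the same contrast after injury, and Piezo1 was higher in injured CAST than in injured C57 ganglia by 0.62 (limma adjusted p = 3.22e-06). Less the reads of overlapping genes other than Gm20388, with the whole Ctu2 value subtracted, Piezo1 was higher by 1.29 in injured CAST against C57 (adjusted p = 5.09e-06). In injured DBA against C57 Piezo1 was then higher by 0.96 (adjusted p = 0.000325), where the unsubtracted value was 0.57. Piezo2 was called in injured CAST against C57 only without injured CAST replicate 2 (-0.25, adjusted p = 0.0483). The Trpm8 call in DBA against C57 (-0.32) was lost without injured C57 replicate 4 or injured DBA replicate 1 (-0.28 for each), and on log2(FPKM + 1), where that of Asic2 in CAST against DBA was lost too (adjusted p = 0.0516).

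Genes that act with these channels were counted in the same fits. Of 23 other TRP channel genes listed 21 were tested; across C57, CAST and DBA, 5, 7 and 8 of them rose and 5, 7 and 10 fell, with medians of 0.03, -0.03 and 0.03. Mcoln2, a lysosomal mucolipin channel gene, rose by 2.37, 1.77 and 2.82 in C57, CAST and DBA, its relative Mcoln3 by 0.37, 1.24 and 3.11, and the polycystin channel gene Pkd2l1 by 1.17, 0.87 and 2.37 (log2, all called). Of 12 other mechanosensory channel genes 4 rose in each strain, and 4, 5 and 6 fell. The potassium channel gene Kcnk18 (TRESK) fell by 0.89, 1.11 and 1.25, and Tmc1, a hair cell transduction channel gene, rose by 0.6, 0.92 and 0.79. Of 7 other proton-sensing genes tested 3, 2 and 4 rose and 1, 2 and 2 fell, among them the receptor gene Gpr132, which rose by 0.75, 1.22 and 0.94. Of 5 other genes of the acid-sensing and epithelial sodium channel family 4 were tested, the calls were 1 higher and 1 lower, both in DBA, and the 5 summed to 0.991 to 2.06 CPM.

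Channel partners and sensitising receptors moved in both directions. Of 19 partners and regulators 5, 5 and 4 rose and 8, 9 and 11 fell (medians -0.09, -0.10 and -0.22). Stom, for stomatin, a membrane protein that modulates acid-sensing channels, rose by 1.57, 1.14 and 1.58, and S100a10, for a protein that binds several channels, by 0.93, 0.71 and 0.83. Fgf13 went the other way, with log2 fold changes of -0.65, -0.85 and -1.1 in C57, CAST and DBA. Of 16 receptor genes that sensitise the channels 3, 2 and 2 rose and 8, 9 and 8 fell (medians -0.15, -0.17 and -0.24). Ptger3, for a prostaglandin E receptor, fell by 0.52, 0.97 and 0.67.

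Markers of the neurons that use these channels, and of other cells of the ganglion, moved in the same libraries. Of 8 peptidergic nociceptor markers 7 fell and 1 rose in each strain (medians -0.81, -0.70 and -1.12), and their summed level was 1630 to 2010 CPM in injured and 3030 to 3280 CPM in naive C57 ganglia, 1590 to 1980 and 3060 to 3180 CPM in injured and naive CAST ganglia, and 1370 to 1500 and 2620 to 2730 CPM in injured and naive DBA ganglia. Of 11 non-peptidergic nociceptor markers 10 fell in each strain (medians -0.86, -1.36 and -1.35), and of 12 large-diameter neuron markers 11, 11 and 10 fell. Of 6 markers listed for C-fibre low-threshold mechanoreceptors 5 were tested, of which 4 fell in each strain, and of 6 markers of cold-sensing neurons 3, 4 and 4 fell. Scn10a, a sodium channel gene of nociceptors, fell by 0.95, 1.17 and 1.56 in C57, CAST and DBA. Of the 16 pan-neuronal markers 5, 4 and 5 rose and 7, 9 and 9 fell. All 10 injury-induced neuronal genes rose in each strain, with Sprr1a up by 9.11, 7.32 and 9.42.

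All 14 macrophage markers and all 8 fibroblast and perineurial markers rose in each strain. The macrophage markers summed to 308 to 353 CPM in injured and 135 to 147 CPM in naive C57 ganglia, to 369 to 443 and 122 to 134 CPM in injured and naive CAST ganglia, and to 344 to 388 and 135 to 149 CPM in injured and naive DBA ganglia. None of them was at 0 in all libraries of a group. The fibroblast and perineurial markers summed to 494 to 626 CPM in injured and 289 to 477 CPM in naive C57 ganglia, to 727 to 797 and 322 to 432 CPM in injured and naive CAST ganglia, and to 882 to 1010 and 360 to 558 CPM in injured and naive DBA ganglia. Of 9 endothelial markers 1 fell in C57, and 5 in CAST and 4 in DBA rose. Of 8 satellite glia markers 2, 2 and 3 rose and 1 fell in CAST and in DBA, and of 10 Schwann cell markers 3, 5 and 4 rose and 1 fell in DBA. Of 7 pericyte and smooth muscle markers 2, 2 and 1 rose and 1 fell in each strain, and of 7 neutrophil markers 1, 1 and 2 rose. Of 9 lymphocyte markers 3 rose in CAST and 1 in DBA, and 1 fell in each strain. Of 8 skeletal muscle markers 4 fell and of 5 erythrocyte markers 3 rose, all in DBA, and of 5 spinal cord glia markers 4 were tested, of which 2, 1 and 2 fell. Piezo1 and Trpv2, the members that rose, are channels that macrophages also carry; the part of these cells in their rise, and the part of the neuronal markers in the fall of the others, was not tested.

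Genes whose levels followed each member over the 24 libraries are given as a description; these libraries share depth, strain and injury. Trpa1 ran closest with Cd55b (Pearson r = 0.99), Kcnn2 (0.983) and Cyp2j12 (0.981), Trpm8 with Dgkh (0.979), Oprd1 (0.979) and Dync2h1 (0.977), and Trpv1 with Rcan3 (0.966), Rasgef1a (0.96) and Ror2 (0.958). Asic1 ran closest with Ttc7b (0.979), Asic2 with Kirrel3 (0.969), Asic3 with Gm45837 (0.969), Piezo1 with Plxnb2 (0.97), Piezo2 with Castor2 (0.958) and Trpv2 with Hgs (0.958). For Trpm3 the closest were Serpina1b (0.891), Serpina1a (0.876) and Serpina1c (0.872), near-identical copies of 1 family between which reads may have been split.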

How the data were processed

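RNA from 24 dorsal root ganglion samples was sequenced, 4 libraries in each of 6 groups. Total RNA was taken up in Trizol, per the labels' protocols. The submitters' processing notes name STAR 2.3.0 and mm10; the sources used here do not give the counting tool, annotation or strand setting. No other build is named for any strain, and the part of strain sequence differences in the values was not tested. The authors deposited FPKM values for 38215 genes. For the 36429 gene IDs (95.3%) with a span in GENCODE M21, FPKM multiplied by the span in kilobases gave CPM (reads per 1e6 reads of a library). Library totals were estimated, each chosen to bring many low values near whole reads. At these totals 65.6% of the values that stand for 0.5 to 100 reads lay within 0.05 of a whole number. An arbitrary total would give about 10%, but the totals were fitted to this share, so the share is no independent check of them. Genes with at least 0.1 CPM in at least 4 libraries were tested (25983) with limma 3.58.1 and statmod 1.5.0 in R 4.3.3, on log2(CPM + 0.5) with trend and robust empirical Bayes, 1 mean per group over all 24 libraries, and Benjamini-Hochberg adjustment within each of 12 contrasts; adjusted p under 0.05 was called. Fold changes of low genes are understated by the added 0.5 CPM. P-values are two-sided and measure the spread between libraries labelled as biological quadruplicates. The members and lists were chosen with earlier results of these data known. All members are named; other lists are given by counts and up to 3 genes called alike in all strains with the largest mean change, and likeness of pattern by the 3 highest correlations. The 36 alternatives changed the scale, pseudocount, scaling, filter, fit or libraries. Leaving out the 3 libraries that stood apart and subtracting reads of overlapping genes were added after seeing the data. The subtraction took off the whole value of an overlapping gene, also where that gene overlaps only in part.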

Additional observations from a re-analysis of the deposited data

Results flagged for a closer look

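In 2 of the 60 sets of 4 libraries (10 genes in 6 groups), 1 library lay far from the others; chance alone gives about 1 in 20. Trpv1 had 29.52 CPM in naive CAST replicate 4, against 33.3 to 33.75 CPM in the other naive CAST libraries. Asic2 had 61.16 CPM in injured DBA replicate 2, against 56.01 to 56.67 CPM in the other injured DBA libraries.

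The response to crush differed between strains, by limma's test of the difference, in 9 of 30 comparisons, which share strains and are not independent. Of all genes, 12.4% were called in CAST minus C57, 14.5% in CAST minus DBA and 9.31% in DBA minus C57. In CAST minus C57 this was Piezo1 (0.469). In CAST minus DBA it was Trpm3 (-0.633), Asic1 (-0.37) and Asic3 (0.483). In DBA minus C57 it was Trpa1 (-0.365), Trpm3 (0.503), Piezo1 (0.569), Asic1 (0.268) and Asic3 (-0.445). Trpm3 was the member called in opposite directions after crush, higher in DBA (0.34) and lower in CAST (-0.29).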

How the results depend on the processing

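Of 4320 member values under 36 alternatives, 4211 kept their direction and side of the threshold or stayed uncalled, 68 lost a call, 40 gained one and 1 that had not been called was called with the opposite sign: the Trpa1 difference in crush response, CAST minus DBA, was -0.276 on log2(FPKM + 1), against 0.225 (adjusted p = 0.165) on log2(CPM + 0.5). Among the 4211 were 62 values that were called under neither setting and changed sign, within -0.093 to 0.087. Of 75 member calls 64 held under every alternative, 24 of 28 among the crush calls. Of 432 counts of called members 419 stayed within 1.5 times. The exceptions all concern members with a different crush response in CAST minus C57, of which there was 1: the count was 2 on log2(FPKM + 1), 3 with upper-quartile scaling, 2 with median-of-ratios scaling, 2 with a filter at 1 CPM, 2 without the 3 libraries that stood apart, 0 less the reads of overlapping genes, and 1 to 3 on leaving out each library in turn. The cause was not tested.

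The replicate numbers showed no clear pairing of the samples, though low correlations cannot exclude one. Same-numbered injured and naive libraries of a strain correlated at -0.19 to 0.13 in their deviations, and 8 of 24 libraries correlated best with their own number. Between groups, 16 of 60 same-numbered pairs correlated above 0.1, as did 33 of 180 different-numbered pairs. With the replicate number as a block, 1 member call was lost, that of Asic2 in naive DBA against C57 (-0.177, adjusted p = 0.0611), and 1 gained, that of Asic3 after crush in CAST (-0.13, adjusted p = 0.00462).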
